A study of Mus musculus with 16 samples.

Results

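The matrix metalloproteinases (MMPs) and the tissue inhibitors of metalloproteinases (TIMPs) described here are 10 genes, 6 MMPs (Mmp2, Mmp3, Mmp9, Mmp12, Mmp14 and Mmp19) and 4 TIMPs (Timp1, Timp2, Timp3 and Timp4). They were chosen by name, with earlier results of these data known, and all 10 are among the 19373 entries of the expression table. The RNA came from gonadal white adipose tissue (gWAT) of 16 male C57BL/6J mice, 4 in each of 4 groups, with 1 library per mouse and no pooling. Every mouse carried the floxed Mboat7 alleles. The Mboat7 flox/flox control mice carried no Cre recombinase, and the Mboat7 ASKO mice carried a Cre driven by the adiponectin promoter, which deletes Mboat7 in adipocytes and leaves the gene in place in every other cell type. Mice of both genotypes were fed chow or a high-fat diet (HFD) for 20 weeks, fasted for 4 h and perfused with saline before the tissue was frozen. Mice are named here by group and by the number from 0 to 3 that their labels carry.

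MMPs are zinc-dependent endopeptidases that cut collagens, elastin, proteoglycans and other proteins outside the cell, and most are made as inactive precursors. TIMPs bind the active enzymes and block them, and Timp3 is held in the matrix while the others are soluble. In adipose tissue, growing adipocytes, vessels and incoming macrophages all remodel the matrix around them, and MMPs and TIMPs are made by several of these cell types.

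The values are FPKM, fragments per kilobase of transcript scaled to the fragments mapped, so levels of different genes can be compared per length. The FPKM sum of a mouse ran from 606370 to 982004, and the 10 highest genes took between 32.6% and 55.2% of it. Low FPKM values lie on steps, each about the value of 1 fragment, from which between 248000 and 424000 fragments per mouse were estimated (median 357500). The fragment numbers are approximate. Counted in steps, from 53.6% to 81.1% of a mouse's low values came within 0.2 of an integer. An even spread would give 40% at a step fixed beforehand. The step was instead fitted to these same values, so some excess over 40% comes from the fit alone. For each named gene, the length of its longest transcript was used. Where shorter transcripts carry the signal, the fragment numbers are too high. Over all 16 mice, about 1871 fragments stood behind Mmp12, 1465 behind Mmp19, 888 behind Timp4, 864 behind Timp3 and 787 behind Timp2. Mmp2 had about 109 and Mmp14 about 85.9, while Mmp3 had about 14.7, Timp1 about 10.1 and Mmp9 about 7.38. For the last 3 genes, a single fragment is worth 1.75, 4.10 and 0.940 FPKM at the median mouse, so a value of 0 does not show that the transcript was absent.

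**Figure D1:**
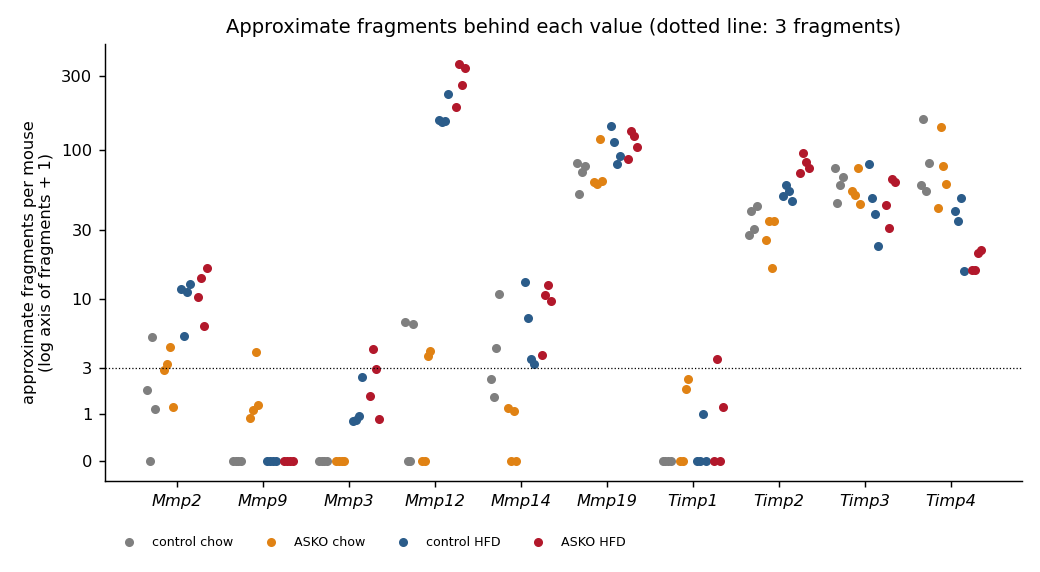
Approximate number of fragments behind the value of each gene, on a log axis of fragments plus 1, 1 point per mouse and colour by group (4 mice per group); the dotted line marks 3 fragments. Mmp3, Mmp9 and Timp1 stay at or below about 4.27, 4.08 and 3.56 fragments in every mouse, and Mmp12 reaches about 361 on HFD.

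The tissue label was checked against 8 adipocyte markers, all of which were detected in every group. Their summed level was between 11696 and 17984 FPKM in control mice and between 9548 and 26496 FPKM in ASKO mice on chow. On HFD, the sum was between 5069 and 11704 FPKM in control mice and between 6907 and 7828 FPKM in ASKO mice, with Fabp4, a fatty acid carrier, as the most abundant marker in all 4 groups. Of 8 epididymis and testis genes, 2 were in the table and none had enough signal to be tested. Defb42, the most abundant of them, was at 13.7 FPKM in 1 control mouse on chow and listed at 0 in all other mice. Of 5 skeletal muscle genes, only Acta1 was in the table, at no more than 11.7 FPKM.

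Mboat7 (ENSMUSG00000035596.14, mm10 chr7:3677789-3693523, minus strand) is the deleted gene. It was at 2.42, 4.33, 0.902 and 4.99 FPKM in control mice and at 0, 1.39, 0 and 2.89 FPKM in ASKO mice on chow. On HFD, it was at 0, 0, 2.15 and 1.61 FPKM in control mice and at 1.14, 0, 2.60 and 0 FPKM in ASKO mice. The genotypes overlapped on both diets. The mean log2(FPKM + 1) of ASKO mice differed from that of control mice by -1.12 on chow (two-sided exact permutation test, p = 0.143) and by -0.02 on HFD (exact permutation test, p = 1), where 4 mice against 4 cannot give a p below 0.0286. All values of the gene together stand for about 27.8 fragments, and Tsen34 on the other strand shares exon bases with it, so the deletion was not detectable in these values.

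Some libraries stood apart. The first principal component of all tested genes separated the diets, with scores from -53.3 to -39.5 on chow and from 35.0 to 51.5 on HFD. On the second component, ASKO mouse 0 on chow (85.9), ASKO mouse 2 on chow (-87.1) and control mouse 0 on HFD (-70.3) lay far from the rest, the next of which was at 35.6. Results that depend on these 3 mice are given below with and without them, a comparison chosen after seeing the data. Control mouse 1 and ASKO mouse 3 on HFD had 55.2% and 54.2% of their FPKM sum in the 10 highest genes.

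Groups were compared with limma on log2(FPKM + 1), with all 16 mice in 1 fit and p-values adjusted by Benjamini-Hochberg over 13147 genes. A gene was called when its adjusted p was under 0.05 and its log2 fold change was beyond 0.5 in either direction. All 10 genes passed the filter of at least 1 FPKM in at least 4 mice, but Mmp9 passed through ASKO mice on chow alone and Mmp3 through mice on HFD alone, so these 2 had to differ somewhere. The question of the diet comparisons is how 20 weeks of HFD change the tissue of each genotype. In control mice, HFD raised 3 of the 10 genes (Mmp12, Mmp2 and Mmp3) and lowered none, where 1.81% of all tested genes were called higher and 1.1% lower. In ASKO mice, it raised 4 (Mmp12, Mmp3, Mmp14 and Timp2) and lowered 2 (Timp4 and Mmp9), where 2.13% of tested genes were called higher and 1.3% lower. The chow and HFD mice did not overlap for 3 of the 10 genes in control mice (8.34% of tested genes) and for 7 in ASKO mice (9.6% of tested genes). These counts include Mmp3 and Mmp9, which had to differ somewhere. Without these 2 genes, the called genes were Mmp12 and Mmp2 in control mice and Mmp12, Mmp14, Timp2 and Timp4 in ASKO mice. The diets did not overlap for the same genes and, in ASKO mice, for Mmp2. An unadjusted p under 0.05 was found for 5 and 7 of the genes, and for 1869 and 1974 of the 13147 tested genes. The median log2 fold change of the 10 genes was 0.59 in control and 0.78 in ASKO mice, beside 0.00 and 0.03 over all tested genes. The 10 genes, like the marker and other gene lists used here, were chosen with earlier results of these data known. Their counts and medians are therefore not an independent comparison with all tested genes.

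A call in 1 genotype and not in the other does not show that the genotypes respond differently, and no interaction between genotype and diet was called for any of the 10 genes. The 2 comparisons share no mice but share the estimate of the variance. When each mouse was scaled to its FPKM sum without the 10 highest genes, the median of all tested genes moved by 0.15 in the diet comparison of ASKO mice, by 0.11 between genotypes on HFD and by 0.20 in the interaction. The share of called genes that were higher on HFD in ASKO mice was then 77.5%, against 62.1% on the values as they are. The fold changes of the called genes in ASKO mice, taken relative to the moved median, were 6.47 for Mmp12, 2.06 for Mmp3, 2.42 for Mmp14, 1.34 for Timp2, -2.10 for Timp4 and -1.49 for Mmp9, and all stayed called.

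**Figure D2:**
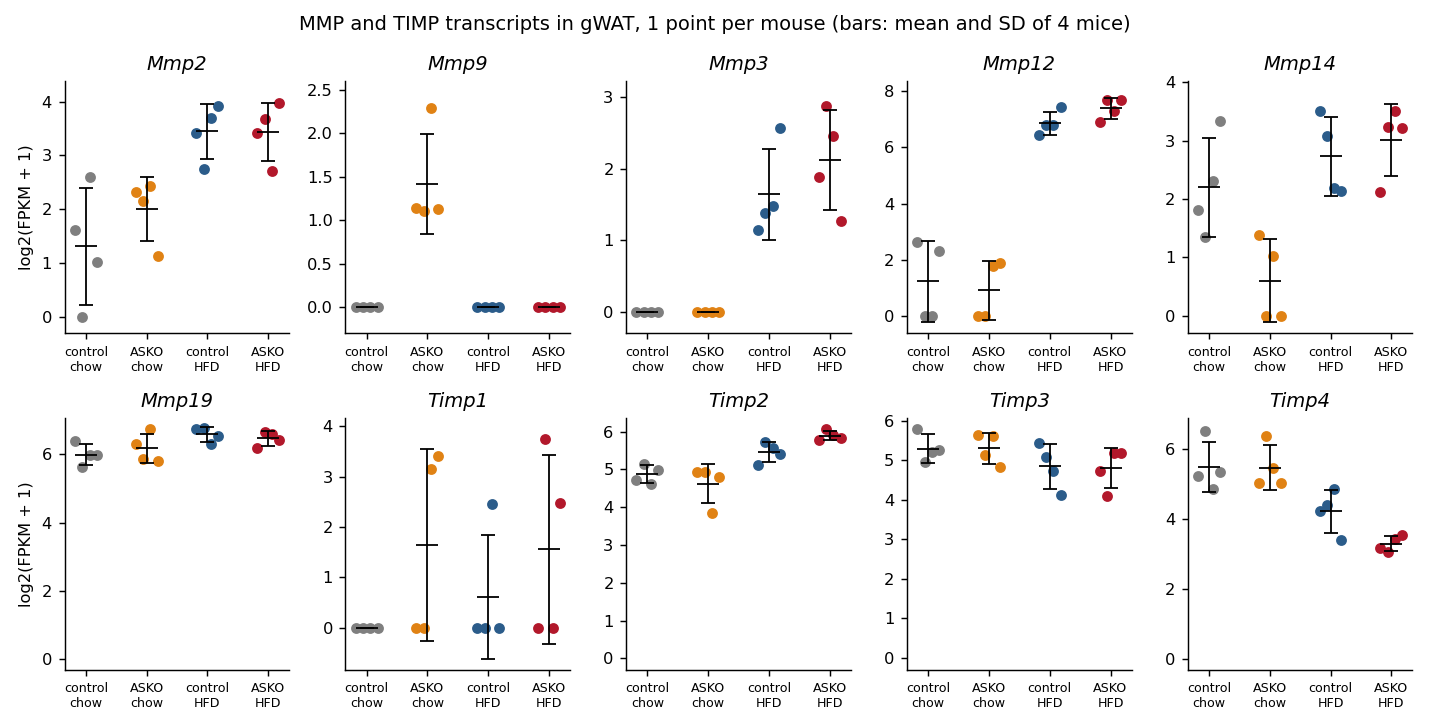
Level of each of the 10 genes as log2(FPKM + 1) in every mouse, by group (4 mice per group; bars: mean and SD). Mmp12 lies between 86.3 and 205 FPKM in the 8 mice on HFD and at or below 5.19 FPKM in the 8 mice on chow.

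Mmp12 encodes macrophage elastase, an enzyme made mainly by macrophages that cuts elastin (ENSMUSG00000049723.14, mm10 chr9:7344381-7369499, plus strand). It is shown with 2 promoter windows of RefSeq, on GRCm38.p6 at chr9:7344147-7344446 and chr9:7347124-7347423, plus strand, because it moved most with diet among the 10 genes. The stromelysin gene Mmp3, which lies near it (chr9:7445572-7445871 for its window, plus strand), was also higher on HFD, and Timp4 (chr6:115252156-115252455, minus strand) was lower in ASKO mice. Each window runs from 250 bases before to 50 bases after a start site, is written 5′ to 3′ on the gene's strand, and has matches to the searched motifs in capitals.
Mmp12 window 1: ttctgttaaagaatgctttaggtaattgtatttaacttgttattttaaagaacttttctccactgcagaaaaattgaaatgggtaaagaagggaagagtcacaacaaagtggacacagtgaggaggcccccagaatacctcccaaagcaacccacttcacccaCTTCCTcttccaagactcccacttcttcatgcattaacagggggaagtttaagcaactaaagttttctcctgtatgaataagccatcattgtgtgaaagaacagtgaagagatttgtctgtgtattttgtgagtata
Mmp12 window 2: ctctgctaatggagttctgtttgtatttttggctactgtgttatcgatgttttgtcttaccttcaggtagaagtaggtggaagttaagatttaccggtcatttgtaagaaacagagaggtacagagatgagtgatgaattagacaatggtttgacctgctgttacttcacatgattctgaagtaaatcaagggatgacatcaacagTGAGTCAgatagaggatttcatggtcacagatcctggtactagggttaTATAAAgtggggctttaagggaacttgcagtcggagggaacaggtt
Mmp3: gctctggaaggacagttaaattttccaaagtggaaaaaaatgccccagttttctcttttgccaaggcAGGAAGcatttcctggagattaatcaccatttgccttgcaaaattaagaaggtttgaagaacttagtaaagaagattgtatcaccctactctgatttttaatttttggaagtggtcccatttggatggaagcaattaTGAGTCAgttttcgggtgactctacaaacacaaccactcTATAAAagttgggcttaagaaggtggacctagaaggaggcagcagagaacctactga
Timp4: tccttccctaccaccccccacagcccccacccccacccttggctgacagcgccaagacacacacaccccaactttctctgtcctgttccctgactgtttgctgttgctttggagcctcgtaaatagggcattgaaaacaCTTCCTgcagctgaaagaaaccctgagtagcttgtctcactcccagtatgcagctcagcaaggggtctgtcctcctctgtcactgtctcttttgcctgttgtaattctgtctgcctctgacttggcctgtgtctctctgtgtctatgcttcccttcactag
Both strands were searched for 3 motifs. TGANTCA is the form bound by AP-1 transcription factors. AGGAAG is the core bound by ETS factors such as PEA3. The third, TATAAA, is the box bound by the general transcription machinery near many start sites. Positions give the first base of a match from the start site, negative before it. The second window of Mmp12 holds the AP-1 form TGAGTCA at -44 and the TATAAA box at 4, and that of Mmp3 holds the AP-1 form TGAGTCA at -46, the TATAAA box at -7 and the ETS core at -183. The first window of Mmp12 and the window of Timp4 hold the ETS core on the other strand, at -87 and -111, and neither holds the other motifs. Among the windows of the remaining genes, those of Mmp14 and Timp3 hold 1 ETS core each, at -209 and -204, that of Timp1 holds 3, at -175, -99 and 40, and that of Timp2 holds none of the motifs. No match overlaps another. Of all 32851 windows of the same length, 7.81% hold the AP-1 motif, 35.4% the ETS core and 13.6% the box, and a match describes letters only.

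On chow, Mmp12 was at 5.19, 0, 0 and 3.96 FPKM in control mice and at 0, 0, 2.47 and 2.67 FPKM in ASKO mice. After HFD, the gene was at 86.3, 109, 109 and 171 FPKM in control mice and at 118, 202, 154 and 205 FPKM in ASKO mice. Every mouse on HFD was thus far above every mouse on chow, while the genotypes overlapped on both diets. The group means on HFD were 119 ± 36.2 FPKM (SD, n = 4) in control mice and 170 ± 41.6 FPKM (SD, n = 4) in ASKO mice, 51.9 and 132 times the means on chow. Each chow mean rests on 2 mice with a value, and without single mice the ratios ran from 39.0 to 90.0 (without control mouse 0 on chow) and from 99.0 to 206 (without ASKO mouse 3 on chow). The log2 fold change with diet was 5.62 in control mice (95% interval 4.33 to 6.92, limma adjusted p = 5.84e-05) and 6.46 in ASKO mice (5.17 to 7.75, limma adjusted p = 1.38e-05). Only 12 and 7 of the tested genes had a smaller p in these comparisons. Between genotypes, the difference was -0.32 on chow (limma adjusted p = 0.990) and 0.52 on HFD (-0.77 to 1.81, limma adjusted p = 0.993), and the interaction was 0.84 (-0.99 to 2.67, limma adjusted p = 0.913). An exon of Mmp12 shares bases 7369165 to 7369321 of chromosome 9 with Mmp1b on the other strand, a collagenase gene that is not listed in the table. The locus given for Mmp12 in the table runs to base 7388047, the end of Mmp1b. The part of Mmp1b fragments in the Mmp12 values was not tested.

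Summed macrophage markers were higher in every mouse on HFD than in any mouse on chow. Of 14 markers, 8 were called higher in control mice and 11 in ASKO mice, where 1.81% and 2.13% of all tested genes were, none was called lower, and none was at 0 in a whole group. Their summed level was between 268 and 329 FPKM in control mice and between 251 and 310 FPKM in ASKO mice on chow, and between 803 and 1288 FPKM and between 1082 and 1556 FPKM on HFD. Lyz2, which encodes a lysozyme, was the most abundant, with means of 110 and 96.0 FPKM on chow and 357 and 470 FPKM on HFD in control and ASKO mice. Between genotypes, limma called no macrophage marker on either diet. On HFD, 13 of the 14 had a fold change above 0 in ASKO against control mice (median log2 fold change 0.44, beside 0.02 over all tested genes), and 1 had an unadjusted p under 0.05. For 3 of them, named after their values were seen, every ASKO mouse on HFD was above every control mouse (3.38% of all tested genes did not overlap in either direction). They were Itgax (from 34.6 to 47.4 FPKM against 8.51 to 26.3 FPKM), Gpnmb (from 112 to 152 FPKM against 55.8 to 85.8 FPKM) and C1qb (from 84.2 to 127 FPKM against 53.7 to 81.1 FPKM). On chow, none had an unadjusted p under 0.05, and 6 of 14 were above 0. Itgax, at or below 0.741 FPKM on chow, passed the filter through mice on HFD alone. In bulk tissue, fewer or more cells of a type and less or more RNA per cell cannot be told apart, and the part of macrophage number in the Mmp12 result was not tested. Within the 8 mice on chow, Mmp12 and the summed markers had a Pearson r of 0.449 and a Spearman rho of 0.355, and r was 0.797 without the 2 mice farthest from the median of the markers. Within the 8 mice on HFD, r was 0.639 and rho 0.667, and r was 0.236 without the 2 farthest mice, so on either diet the value depends on 2 mice.

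**Figure D3:**
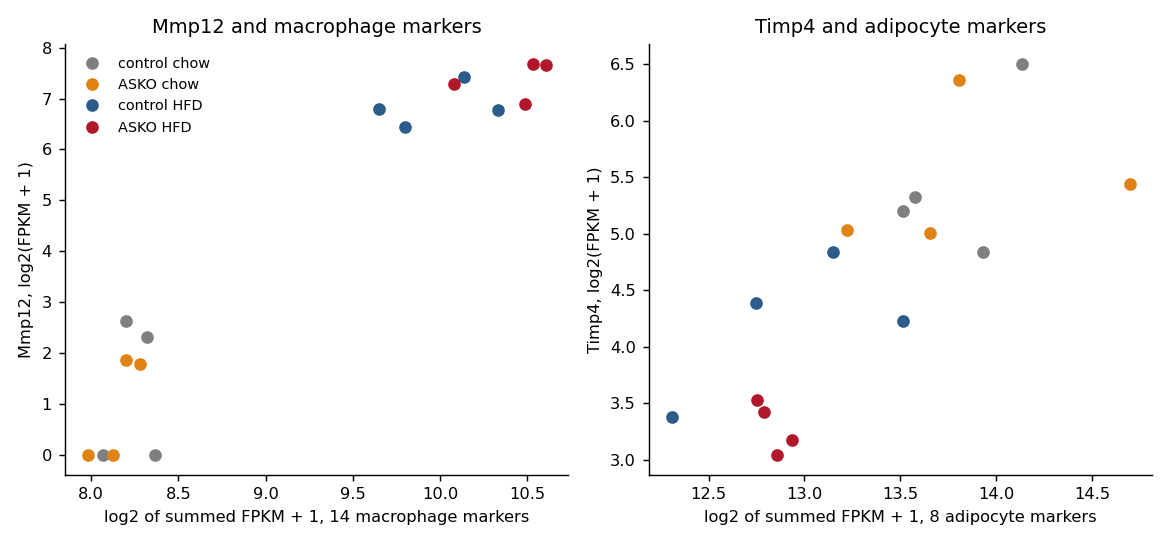
Left: Mmp12 against the summed level of 14 macrophage markers; right: Timp4 against the summed level of 8 adipocyte markers, each axis as log2 of FPKM plus 1, 1 point per mouse and colour by group. The 8 mice on HFD lie apart from the 8 mice on chow for both Mmp12 and the macrophage markers, whose sums reach 329 FPKM on chow and start at 803 FPKM on HFD.

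The gelatinases Mmp2 and Mmp9 cut denatured collagen and the collagen of basement membranes. Mmp2 (ENSMUSG00000031740.8, mm10 chr8:92827291-92853420, plus strand) was at 2.08, 0, 5.02 and 1.03 FPKM in control mice and at 3.98, 3.43, 4.39 and 1.18 FPKM in ASKO mice on chow. On HFD, it was at 9.70, 5.72, 11.95 and 14.2 FPKM in control mice and at 9.64, 11.7, 5.54 and 14.8 FPKM in ASKO mice. In both genotypes, the lowest mouse on HFD was above the highest mouse on chow, by a small margin. The mean on HFD was 10.4 FPKM in either genotype, 5.11 times the mean on chow in control (10.03 times without control mouse 2 on chow) and 3.21 times in ASKO mice. The log2 fold change was 2.14 in control mice (95% interval 1.004 to 3.27, limma adjusted p = 0.0382). In ASKO mice it was 1.44 (0.30 to 2.57, limma adjusted p = 0.189) and was not called, and the interaction was -0.70 (-2.31 to 0.90, limma adjusted p = 0.914). The call in control mice was lost without control mouse 0, 1 or 3 on chow, control mouse 0, 2 or 3 on HFD, or ASKO mouse 0 or 1 on HFD, with adjusted p from 0.0533 to 0.127. It was also lost with a pseudocount of 0.1 (0.0855), with no filter (0.0525), with only the compared groups in the fit (0.134) and without the 3 mice that stood apart (0.0806). Where the call was lost without a single mouse, the log2 fold change was between 1.70 and 2.24. It was 3.23 with the pseudocount of 0.1 and 2.15 without the 3 mice. The genotypes differed by 0.70 on chow (limma adjusted p = 0.983) and by -0.01 on HFD (limma adjusted p = 1).

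Mmp9 (ENSMUSG00000017737.2, mm10 chr2:164940780-164955850, plus strand) was at 1.21, 1.15, 3.88 and 1.19 FPKM in ASKO mice on chow and was listed at 0 in the other 12 mice. These 4 values stand for about 0.892, 1.12, 4.08 and 1.29 fragments. A fold against groups listed at 0 is not given, and the fitted values depend on the pseudocount. Mmp9 passed the filter through the ASKO mice on chow alone, so its tests and its diet call are not independent of the filter. The fitted log2 fold change with diet in ASKO mice was -1.42 (limma adjusted p = 0.0136, called), and that between genotypes on chow was 1.42 (unadjusted p = 0.000226, limma adjusted p = 0.330, not called). The interaction was -1.42 (unadjusted p = 0.00424, limma adjusted p = 0.655). The diet call was lost with only the compared groups in the fit (adjusted p = 0.0983). It was also lost without the 3 mice that stood apart (log2 fold change -1.12, adjusted p = 0.0732), which include ASKO mouse 2, the highest of the 4. Mmp9 is a typical neutrophil product. Of 6 neutrophil markers, 4 were in the table, none had enough signal to be tested, and all 4, S100a8 among them, were at 0 in the ASKO mice on chow where Mmp9 was detected. At this depth a value of 0 does not show absence, and the cell source of Mmp9 was not tested.

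Mmp3 encodes stromelysin, an enzyme of wide range that also activates other MMPs (ENSMUSG00000043613.7, mm10 chr9:7445822-7455975, plus strand). It was listed at 0 in all 8 mice on chow. The HFD values were 1.20, 1.61, 1.78 and 4.91 FPKM in control mice and 2.68, 6.37, 4.5 and 1.40 FPKM in ASKO mice. Every mouse on HFD thus had a value and no mouse on chow did, and the genotypes overlapped on HFD. The highest value stands for about 4.27 fragments. Mmp3 passed the filter through mice on HFD alone, so its diet calls are not independent of the filter. The fitted log2 fold change with diet, which depends on the pseudocount, was 1.64 in control mice (limma adjusted p = 0.0413) and 2.12 in ASKO mice (limma adjusted p = 0.00737). The interaction was 0.48 (-0.77 to 1.73, limma adjusted p = 0.928), and the genotypes differed by 0.48 on HFD (limma adjusted p = 0.993). The call in control mice was lost without any 1 of the 8 mice on chow, without control mouse 1, 2 or 3 on HFD, or without ASKO mouse 0 on HFD, with adjusted p from 0.0511 to 0.119. It was also lost with no filter (0.0722), with only the compared groups in the fit (0.0895) and without the 3 mice that stood apart (0.0630). Where the call was lost without a single mouse, the log2 fold change was between 1.33 and 1.73, and without the 3 mice it was 1.81. The call in ASKO mice was lost without those 3 mice (log2 fold change 2.12, adjusted p = 0.0670) and kept without any single mouse.

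Mmp14 encodes a membrane-type MMP that sits on the cell surface, cuts fibrillar collagen and activates the Mmp2 precursor together with Timp2 (ENSMUSG00000000957.9, mm10 chr14:54431612-54445364, plus strand). On chow, it was at 2.52, 1.56, 3.93 and 9.05 FPKM in control mice and at 1.6, 0, 1.02 and 0 FPKM in ASKO mice. After HFD, the gene was at 10.3, 7.46, 3.57 and 3.39 FPKM in control mice and at 3.32, 8.39, 10.3 and 8.29 FPKM in ASKO mice. The ASKO mice on chow held the low values, and 3 of the 4 were below every control mouse on chow. In ASKO mice 0 and 2 on chow, the values above 0 stand for about 1.21 and 1.09 fragments. In ASKO mice, the mean was 0.655 FPKM on chow and 7.59 FPKM on HFD, 11.6 times as high (from 8.69 to 22.4 times without single mice, the latter without ASKO mouse 0 on chow), with no overlap (log2 fold change 2.42, 1.26 to 3.57, limma adjusted p = 0.0187). In control mice, the diets overlapped (log2 fold change 0.53, -0.63 to 1.68, limma adjusted p = 0.761). The interaction was 1.89 (0.26 to 3.52, unadjusted p = 0.0256, limma adjusted p = 0.728), so a different response of the genotypes did not pass the test. On chow, the genotypes differed by -1.6 (-2.75 to -0.45, unadjusted p = 0.00937, limma adjusted p = 0.875), and on HFD by 0.29 (limma adjusted p = 0.993). The diet call in ASKO mice was lost without ASKO mouse 1 or 3 on chow or ASKO mouse 1, 2 or 3 on HFD, with adjusted p from 0.0531 to 0.0622, and with only the compared groups in the fit (0.0599). Where it was lost without a single mouse, the log2 fold change was between 2.22 and 2.35. The fitted values depend on the pseudocount. With 0.1, the log2 fold change with diet in ASKO mice was 4.26, the genotype difference on chow -3.26 and the interaction 3.59.

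Mmp19 encodes an MMP that cuts components of basement membranes (ENSMUSG00000025355.6, mm10 chr10:128790910-128800824, plus strand). On chow, it was at 83.0, 48.2, 61.3 and 62.0 FPKM in control mice and at 78.0, 57.3, 104 and 54.3 FPKM in ASKO mice. On HFD, it was at 105, 108, 77.0 and 91.1 FPKM in control mice and at 71.8, 99.0, 95.9 and 83.8 FPKM in ASKO mice. It was the highest of the 10 genes on chow in both genotypes, and all 4 groups overlapped. The log2 fold change with diet was 0.59 in control mice (0.03 to 1.15, unadjusted p = 0.0396, limma adjusted p = 0.315) and 0.29 in ASKO mice (-0.27 to 0.85, limma adjusted p = 0.692), and neither was called. The genotypes differed by 0.18 on chow (limma adjusted p = 0.984) and by -0.12 on HFD (limma adjusted p = 0.996), the latter 0.0354 when scaled to the sum without the 10 highest genes and -0.0726 relative to the moved median, so its sign there follows the shift of all genes. An exon shares bases 128800036 to 128800824 of chromosome 10 with Tmem198b on the other strand, which had means of 372 and 464 FPKM on chow and 1085 and 657 FPKM on HFD in control and ASKO mice. Whether strand entered the counting is not stated, and the part of Tmem198b fragments in the Mmp19 values was not tested.

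Timp1, a soluble inhibitor that many cell types make in inflammation (ENSMUSG00000001131.11, mm10 chrX:20870166-20874735, plus strand), was listed at 0 in 11 of the 16 mice. It was at 7.94 and 9.64 FPKM in ASKO mice 2 and 3 on chow, at 4.5 FPKM in control mouse 2 on HFD, and at 12.5 and 4.58 FPKM in ASKO mice 1 and 3 on HFD. Each of these values stands for between about 1.01 and 3.56 fragments. No comparison was called, and differences in Timp1 were not detectable at this depth. The fitted log2 fold change with diet was 0.61 in control mice (-1.36 to 2.59, limma adjusted p = 0.840) and -0.08 in ASKO mice (-2.06 to 1.89, limma adjusted p = 0.986), the latter 0.01 when scaled to the sum without the 10 highest genes and -0.14 relative to the moved median.

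Timp2 binds most MMPs and takes part in the activation of the Mmp2 precursor by Mmp14 (ENSMUSG00000017466.9, mm10 chr11:118301069-118355740, minus strand). On chow, it was at 25.5, 34.2, 23.6 and 30.9 FPKM in control mice and at 29.4, 29.5, 13.4 and 26.8 FPKM in ASKO mice. The HFD values were 33.4, 51.9, 46.5 and 41.8 FPKM in control mice and 53.5, 65.5, 58.7 and 55.8 FPKM in ASKO mice. All ASKO mice on HFD were above all other mice, while control mice on HFD overlapped those on chow in 1 mouse. In ASKO mice, the mean on HFD was 58.4 ± 5.2 FPKM (SD, n = 4), 2.36 times the mean on chow (log2 fold change 1.26, 0.65 to 1.87, limma adjusted p = 0.0195). In control mice, the log2 fold change was 0.59 (-0.02 to 1.19, limma adjusted p = 0.380), and the interaction was 0.68 (-0.18 to 1.54, limma adjusted p = 0.838). On HFD, the genotypes differed by 0.43 (-0.18 to 1.04, limma adjusted p = 0.984) although they did not overlap, and on chow by -0.24 (limma adjusted p = 0.983). The diet call in ASKO mice was lost without ASKO mouse 0, 1 or 2 on HFD, with adjusted p from 0.0509 to 0.0639, and with only the compared groups in the fit (0.0823). Where it was lost without a single mouse, the log2 fold change was between 1.21 and 1.30. Without the 3 mice that stood apart, the fold change was 1.02 and its adjusted p 0.0637.

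Timp3, the inhibitor held in the matrix, which also blocks Adam17 (ENSMUSG00000020044.13, mm10 chr10:86300372-86349506, plus strand), was at 54.3, 29.7, 35.6 and 37.1 FPKM in control mice and at 48.4, 34.0, 47.9 and 27.2 FPKM in ASKO mice on chow. On HFD, it was at 42.5, 32.9, 25.6 and 16.4 FPKM in control mice and at 25.5, 16.2, 35.2 and 35.1 FPKM in ASKO mice. All 4 groups overlapped. The log2 fold change with diet was -0.45 in control mice (-1.19 to 0.30, limma adjusted p = 0.646) and -0.50 in ASKO mice (-1.25 to 0.24, limma adjusted p = 0.568), and the genotypes differed by 0.00 on chow and by -0.05 on HFD, which were -0.14 and 0.10 with the sum without the 10 highest genes, and -0.0499 and -0.0048 relative to the moved median. Its exons overlap those of Syn3 on the other strand, which was at 7.02 FPKM or below in every mouse.

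Timp4, the TIMP with the narrowest range of tissues, adipose tissue and heart among them (ENSMUSG00000030317.8, mm10 chr6:115241892-115252205, minus strand), was at 35.8, 89.7, 27.6 and 39.1 FPKM in control mice and at 31.7, 81.1, 42.4 and 31.1 FPKM in ASKO mice on chow. Mice on HFD had 17.8, 19.9, 27.7 and 9.44 FPKM among controls and 8.02, 7.24, 9.76 and 10.6 FPKM among ASKO mice. In ASKO mice, all values on HFD were far below those on chow, and in control mice 3 of 4 were below them. The mean on HFD was 0.191 times that on chow in ASKO mice (log2 fold change -2.17, -3.05 to -1.28, limma adjusted p = 0.00657, called in every alternative tried). In control mice, the ratio was 0.389 (log2 fold change -1.26, -2.14 to -0.38, unadjusted p = 0.00791, limma adjusted p = 0.138), which was not called, and the interaction was -0.91 (-2.15 to 0.34, limma adjusted p = 0.843). On HFD, the genotypes differed by -0.92 (-1.80 to -0.04, unadjusted p = 0.0420, limma adjusted p = 0.946), with 2 of the 4 ASKO mice below every control mouse. On chow, the difference was -0.01 (limma adjusted p = 1). Syn2, whose exons overlap those of Timp4 on the other strand, was at 3.70 FPKM or below in every mouse.

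Of the 8 adipocyte markers, 3 were called with diet in either genotype (37.5%, beside 2.91% of all tested genes in control and 3.43% in ASKO mice). In each genotype, 7 of the 8 had a fold change below 0 and 1, Lep, above 0, with an unadjusted p under 0.05 for 6 in control and 7 in ASKO mice (1869 and 1974 of all 13147 tested genes). Car3 and Adipoq were called lower on HFD in both genotypes (log2 fold changes of -2.0 and -1.67 in control mice, -2.08 and -1.38 in ASKO mice) and Lep was called higher (1.98 and 1.59). The median over the 8 markers was -0.80 in control and -0.87 in ASKO mice. Within a diet, the summed markers and Timp4 had a Pearson r of 0.342 and a Spearman rho of 0.405 over the 8 mice on chow, and 0.485 and 0.167 over the 8 mice on HFD, and the part of the adipocyte share in the Timp4 result was not tested. Without the 2 mice farthest from the median of the markers, r was 0.551 and 0.455.

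**Figure D4:**
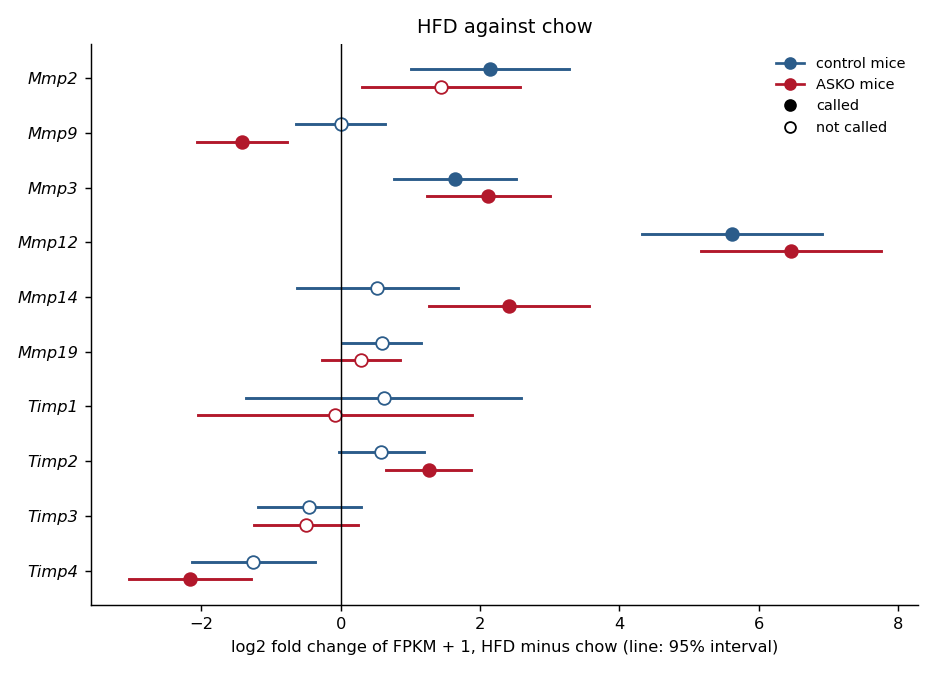
Log2 fold change of FPKM + 1 with diet (HFD minus chow) for each of the 10 genes in control and ASKO mice, with the 95% interval as a line; filled points were called by limma and open points were not. Mmp12 lies highest, at 5.62 and 6.46, and Timp4 lowest, at -1.26 and -2.17.

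The genotype comparisons ask what the loss of Mboat7 from adipocytes changes on each diet. limma called none of the 10 genes on chow and none on HFD, where 0.00761% of all tested genes (1 gene) was called on either diet. On HFD it was Cdk20 (log2 fold change -2.04, limma adjusted p = 0.0271), named after its values were seen, which is listed at 0 in every mouse outside the control group on HFD, so the call compares values with a whole group at 0. An unadjusted p under 0.05 was found for 2 of the 10 genes on chow (Mmp9 and Mmp14) and for 1 on HFD (Timp4), and for 631 and 677 of all tested genes. On HFD, the genotypes did not overlap for 1 gene, Timp2, where 3.38% of tested genes did not. On chow, they did not for Mmp9 alone (2.19% of tested genes), which the filter fixed, since this gene passed through the 4 ASKO mice on chow and is at 0 elsewhere, and its unadjusted p-values here and in the interaction carry the same limit. For the interaction, limma called none of the 10 genes and none of the 13147 (0%), with an unadjusted p under 0.05 for 2 of the 10 (Mmp9 and Mmp14) and 827 in all. The genotype and diet comparisons share groups of mice, so the ASKO mice on chow, low in Mmp14 and with a value for Mmp9, enter both the diet and the genotype differences of these 2 genes. On HFD, the intervals of the genotype difference reach up to 2.91 on the log2 scale for Timp1, which rests on few fragments, and down to -1.80 for Timp4.

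**Figure D5:**
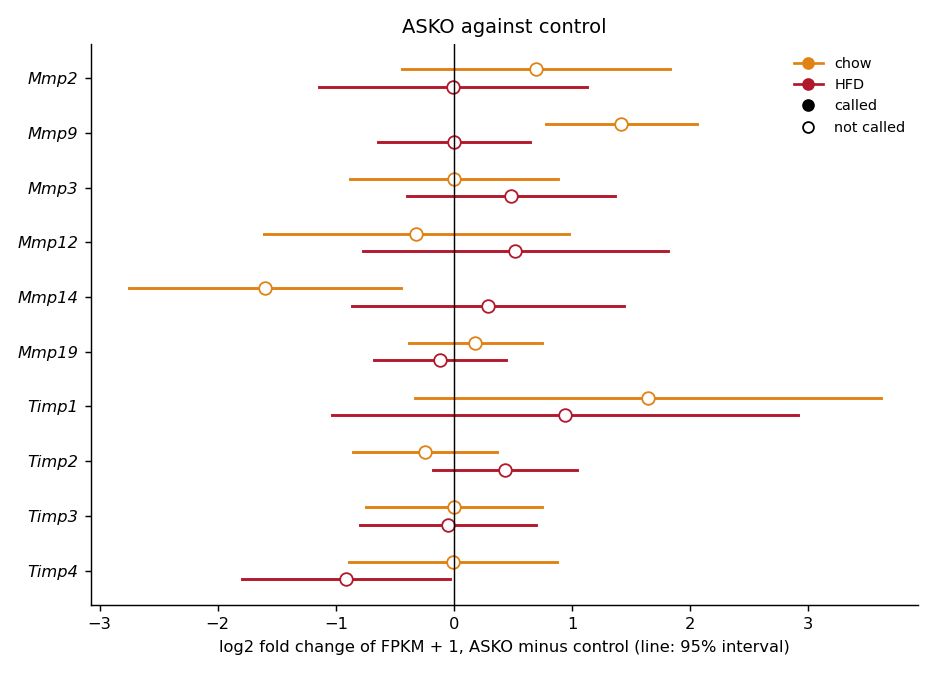
Log2 fold change of FPKM + 1 with genotype (ASKO minus control) for each of the 10 genes on chow and on HFD, with the 95% interval as a line. No point is filled, since limma called none, and the intervals of Mmp9 (0.78 to 2.06) and Mmp14 (-2.75 to -0.45) on chow and of Timp4 (-1.80 to -0.04) on HFD do not include 0.

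Ordered by mean level per length, the 4 highest genes on chow were Mmp19, Timp4, Timp3 and Timp2 in both genotypes, each overlapping the next. In control mice on chow they were at 63.6, 48.1, 39.2 and 28.5 FPKM, and a gap followed to Mmp14 at 4.26 FPKM. On HFD, Mmp12 came first in both genotypes, followed by Mmp19, Timp2 and Timp3. In control mice on HFD, Mmp12 overlapped Mmp19, Timp2 overlapped Timp3 and Timp3 overlapped Timp4, and in ASKO mice all 4 were apart from their neighbours in the order. Mmp2, Timp4 and Mmp14 followed in ASKO mice on HFD at 10.4, 8.89 and 7.59 FPKM, overlapping one another.

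The summed level of the 6 MMPs was 72.2 ± 17.8 FPKM (SD, n = 4) in control and 80.6 ± 26.4 FPKM in ASKO mice on chow, and 233 ± 36.0 and 279 ± 54.8 FPKM on HFD. Mmp12 made up between 0 and 5.59% of this sum in the mice on chow. On HFD, its share was between 40.5% and 60.0% in control and between 57.0% and 65.4% in ASKO mice. Without Mmp12, the sums were 69.9 and 79.3 FPKM on chow and 114 and 109 FPKM on HFD. The summed level of the 4 TIMPs was 116 and 115 FPKM on chow and 92.6 and 99.5 FPKM on HFD in control and ASKO mice. Within that sum, the mean share of Timp4 was 39.4% and 39.0% on chow and 19.6% and 8.93% on HFD, and that of Timp2 was 25.1% and 21.9% on chow and 47.9% and 58.8% on HFD. The MMP sum and its shares cover only the 6 MMPs described here and leave out Mmp24, given below. Mmp24 had means of 355 and 462 FPKM on chow and 340 and 214 FPKM on HFD in control and ASKO mice. In every group but ASKO mice on HFD, that was above the mean sum of the 6 MMPs. These sums and shares are descriptions and were not tested.

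Of 63 tested genes outside the 10 that belong to the same system, 4 were called with diet in control and 4 in ASKO mice (6.35% in either, beside 2.91% and 3.43% of all tested genes). Of 17 other MMPs, 9 were in the table and 4 were tested. Mmp24, which encodes a membrane-type MMP, was called lower on HFD in ASKO mice, from a mean of 462 to 214 FPKM (log2 fold change -1.13, limma adjusted p = 0.0296). In control mice, it had means of 355 FPKM on chow and 340 FPKM on HFD and was not called. Its mean level per length was above that of each of the 10 genes in all 4 groups, and its exons overlap those of BC029722, which reached 8.19 FPKM. The median fold change of the 4 was -0.35 in control and -0.59 in ASKO mice. ADAMs are membrane proteases related to MMPs, and 8 of 11 were tested, with 1 called in either genotype and medians of 0.45 and 0.37. That gene was Adam8, an ADAM of myeloid cells, which in control mice had means of 0.440 FPKM on chow and 13.0 FPKM on HFD (a log2 fold change of 3.19 with limma adjusted p = 0.000617). In ASKO mice, Adam8 was listed at 0 on chow and had a mean of 15.3 FPKM on HFD (limma adjusted p = 5.81e-05). No mouse on chow was above 0.972 FPKM, so Adam8 passed the filter through mice on HFD alone.

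Among 8 tested genes of 19 ADAMTS proteases, which cut proteoglycans, none was called with diet by limma (medians 0.23 and -0.17). None of 11 tested genes of MMP activation and the plasminogen system was called (medians -0.02 and 0.48), nor any of 4 tested genes of other protease inhibitors (medians -0.05 and 0.06). Of 5 cell surface partners of MMPs and TIMPs, Cd44, the hyaluronan receptor, was called higher on HFD in both genotypes, with control means of 2.58 FPKM on chow and 19.4 FPKM on HFD (2.76 on the log2 scale, limma adjusted p = 0.00487) and ASKO means of 2.66 and 43.1 FPKM (3.62, limma adjusted p = 0.000457). The medians of these 5 genes were 0.32 and 0.56. Of 23 matrix proteins that MMPs cut or that bind collagen, 2 were called higher in control and 1 in ASKO mice, with medians of 0.64 and 0.54. Lum, which encodes the collagen-binding proteoglycan lumican, rose in control mice from 25.7 to 135 FPKM (2.36 on the log2 scale, limma adjusted p = 0.000285) and from 25.2 to 194 FPKM in ASKO mice (2.94, limma adjusted p = 3.66e-05). Bgn, which encodes biglycan, rose from 9.54 to 26.8 FPKM in control mice (1.33, limma adjusted p = 0.0425) and, without being called, from 11.9 to 29.1 FPKM in ASKO mice (1.19, limma adjusted p = 0.0678). No gene of these lists was called between genotypes or for the interaction.

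Markers of other cell types that make MMPs or TIMPs were counted in the same way. Of 10 fibroblast and progenitor markers, limma called none with diet, and their sum was between 185 and 304 FPKM in the mice on chow and between 233 and 479 FPKM on HFD, with Dpt the most abundant. Of 8 endothelial markers, with Pecam1 the most abundant, none was called, and their sum was between 32.7 and 80.1 FPKM on chow and between 37.9 and 103 FPKM on HFD. Of 6 smooth muscle and pericyte markers, 4 were tested and none was called, with Tagln the most abundant and Cnn1 at 0 in both control groups and in ASKO mice on HFD. Of 6 mesothelial markers, Lrrn4 was called lower on HFD in control mice, with a log2 fold change of -1.48 and a limma adjusted p of 0.0344. Lrrn4 is listed at 0 in all 8 mice on HFD and passed the filter through mice on chow alone. No marker was called in ASKO mice, and 2.91% and 3.43% of all tested genes were called in control and ASKO mice. All 6 had a fold change below 0 in control mice (median -1.55) and 5 in ASKO mice (median -0.90). An unadjusted limma p under 0.05 was found for 5 in control and 0 in ASKO mice, beside 1869 and 1974 of all 13147 tested genes. The mesothelial sum was between 14.3 and 39.8 FPKM on chow and between 0 and 12.7 FPKM on HFD, with Upk3b the most abundant. Of 8 lymphocyte markers, 7 were in the table, Cd79a, the most abundant, was the only gene tested, and it was not called.

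Over the 8 mice on chow, Timp3 and the summed endothelial markers had a Pearson r of 0.907 and a Spearman rho of 0.905, and r was 0.893 without the 2 mice farthest from the median. On HFD, r was 0.574 and rho 0.548, and r was 0.535 without them. For Timp2 and the fibroblast markers, r was -0.363 on chow and 0.729 on HFD, and -0.345 and 0.250 without the 2 farthest mice. For Mmp2 and the fibroblast markers, r was 0.258 on chow and -0.285 on HFD, and 0.573 and -0.825 without the 2 farthest mice. For Mmp14, r was -0.04 and 0.02, and -0.34 and 0.04 without them. These are part of 12 such relations, given as descriptions of mice that differ in genotype and library.

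For 6 of the 7 genes called in any comparison, the 3 tested genes with the highest Pearson r over the 16 mice were listed. An r over all 16 mice includes the difference between the diets. For Mmp12, they were Rfc2 (0.979), Cybb (0.978) and Cadm1 (0.973), with r within the diets of 0.640, 0.803 and 0.731 on chow and of 0.626, 0.545 and 0.545 on HFD. Cybb encodes a subunit of the phagocyte NADPH oxidase and had means of 2.11 and 1.58 FPKM on chow and 15.2 and 19.6 FPKM on HFD in control and ASKO mice. The exons of Rfc2, a replication factor subunit, overlap those of Lat2 on the other strand. For Mmp3, they were Zranb3 (0.941), Gm29439 (0.930) and Ptprc (0.928), the pan-leukocyte gene of CD45, with r within HFD of 0.699, 0.507 and 0.666. Mmp3, Zranb3 and Gm29439 are listed at 0 in all mice on chow, so an r within chow is undefined and the r over 16 mice follows largely from these zeros. For Timp2, they were Plek (0.949), Cd84 (0.941) and Prune2 (0.929), of which Plek and Cd84 are genes of blood cells, with r of 0.945, 0.861 and 0.820 within chow and of 0.804, 0.731 and 0.761 within HFD for the 3 genes. For Timp4, they were Mtmr11 (0.890), Ndrg2 (0.881) and Rhof (0.879), with r of 0.771, 0.443 and 0.655 within chow and of 0.511, 0.831 and 0.811 within HFD. Mmp2 was most like Kctd12 (0.878), Lrrfip1 (0.876) and Srrt (0.865), with r of 0.921, 0.775 and 0.821 within chow but of -0.380, 0.484 and -0.0276 within HFD. Mmp14 was most like Gm9761 (0.809), Tnfrsf11a (0.808) and Gyg (0.804), with r of 0.730, 0.749 and 0.723 within chow and of 0.573, 0.187 and 0.581 within HFD. Exons of Kctd12, Zranb3, Gm29439, Plek, Mtmr11 and Rhof also overlap those of genes on the other strand. Of these neighbours, Gm26778 reached 3134 FPKM (Kctd12), Gm28800 138 FPKM (Zranb3) and Gm17690 99.5 FPKM (Mtmr11). The other listed neighbours reached at most about 10.5 FPKM. The part of their fragments in the values was not tested. The genes listed as most alike were picked by r over the same 16 mice, so r within a diet is not independent of that choice. Zeros also enter some r within chow. Mmp12 was listed at 0 in 4 mice on chow, and Cadm1 and Gm9761 were at 0 in all ASKO mice on chow.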

How the data were processed

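RNA of gWAT from 16 mice (4 groups of 4) was sequenced with a directional mRNA kit. The authors trimmed reads with TrimGalore 0.6.5, aligned them to mm10 with STAR 2.5.3a and used Cufflinks 2.2.1 for the deposited FPKM values. The GENCODE release, the strand setting and the library normalization are not stated. The table holds no comparisons, and 0 of its columns were left unmapped. For 22 names that a spreadsheet had changed the symbol was restored, and for 20 symbols on more than 1 line the line with the highest mean was kept. GENCODE M21, which held 99.6% of the identifiers, gave coordinates and exon overlaps. Identifiers are printed with the version of the expression table, and M21 holds a later version for Mmp3, Mmp14 and Mmp19.

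The 13147 genes that reached 1 FPKM in 4 or more mice were tested with limma 3.58.1 (R 4.3.3, intensity trend, no covariate) on log2(FPKM + 1) in 5 contrasts, each adjusted by Benjamini-Hochberg. Calls needed an adjusted p under 0.05 with a log2 fold change beyond 0.5 either way. Mboat7 was compared with an exact permutation test. The code was tested on simulated data. Fragments were estimated from the step of low FPKM values in 1473 genes, allowing for transcript length, and counting error only is covered.

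The members and lists were chosen with earlier results of these data known. Genes named are the 10 members, Mboat7, called genes of the pathway lists (up to 4 per list and contrast), the most abundant gene of each marker list, gene models overlapping a member, and the 3 genes most like each of 6 called members; those most like the other called member, Mmp9, are not reported here. The called adipocyte and mesothelial markers, 3 macrophage markers, Cdk20, Cnn1 and some neighbours of the named genes were named after their values were seen. RefSeq promoter windows matched 7 of the 10 members.

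Alternatives were no filter, a filter of 5 FPKM, a pseudocount of 0.1, upper-quartile scaling, scaling to the sum without the 10 highest genes, only the compared groups in the fit, no intensity trend, the replicate number as a block, and each mouse left out in turn. Leaving out 3 mice together, and single mice for the ratios of means, was added after seeing the data. Python 3.11.15, pandas 2.3.3 and matplotlib 3.10.9 were used.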

Additional observations from a re-analysis of the deposited data

Results flagged for a closer look

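In 50 groups of 4 mice, 8 had a mouse far from the other 3 relative to the range of the group. The 50 cover the 10 genes, Mboat7 and 3 library measures in each group, leaving out groups with a gene at 0 in all 4 mice. Chance gives about 1 in 20 groups only for independent values with a normal distribution. These values are not of that kind. Some rest on few fragments, and a group with 3 mice at 0 and 1 above 0 is always flagged. The library measures also come from the same mice. The 8 groups therefore cannot show whether there were more such mice than chance gives. Among the genes, Mmp3 was at 4.91 FPKM in control mouse 3 on HFD, with the others between 1.20 and 1.78 FPKM. Mmp9 was at 3.88 FPKM in ASKO mouse 2 on chow, with the others between 1.15 and 1.21 FPKM. Timp1 was at 4.5 FPKM in control mouse 2 on HFD, with the others listed at 0. These 3 values stand for about 2.48, 4.08 and 1.01 fragments. Timp2 was at 13.4 FPKM in ASKO mouse 2 on chow, with the others between 26.8 and 29.5 FPKM.

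Among the library measures, control mouse 1 on chow had an FPKM sum of 772397, with the others between 611890 and 636205, and 41.9% of it in the 10 highest genes, with the others between 35.4% and 35.8%. ASKO mouse 3 on HFD had 54.2% in the 10 highest genes, with the others between 38.7% and 39.2%. Control mouse 0 on HFD had an estimated 424000 fragments, with the others between 315000 and 330000. The causes of these values were not tested.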

How the results depend on the processing

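Depth limits Mmp3, Mmp9, Timp1, Mboat7 and the Mmp14 values of ASKO mice on chow most, which rest on a few fragments per mouse. Having 4 mice per group limits every comparison. The 9 called results of the 10 genes kept their direction in all 222 alternatives. They passed in 179 of these and missed in 43. Mmp12 in both genotypes and Timp4 in ASKO mice passed in each one. The 41 results not called were never called in 1003 alternatives and changed sign in 42. The cause of the changes below was not tested, except that leaving out groups or mice leaves fewer mice for the fit.

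Of the 10 genes, the number called with diet in control mice was 1 with no filter, with only the compared groups, with the replicate block and without the 3 mice apart, and between 1 and 3 without single mice. In ASKO mice it was 3 with only the compared groups and without the 3 mice apart. Of all genes, the number called with diet in control mice was 255 with only the compared groups and between 255 (without control mouse 1 on chow) and 421 without single mice. In ASKO mice it was 265 with only the compared groups and between 265 (without ASKO mouse 0 on HFD) and 493 without single mice. Between genotypes on chow it was 2 with no filter, 0 with a filter of 5 FPKM, with upper-quartile scaling and with the block, and between 0 and 4 without single mice. On HFD it was 2 with no filter, 0 with a filter of 5 FPKM, with only the compared groups, with the block and without the 3 mice apart, and between 0 and 3 without single mice. For the interaction it was between 0 and 1 without single mice.

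With the replicate number as a block, the adjusted p of diet in control mice was 0.0619 for Mmp2 and 0.0802 for Mmp3. The numbers do not pair the mice. After group means were removed, mice of the same number in different groups had r between -0.187 and 0.152, and 1 of 24 such pairs was above 0.1.

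Changes of sign were all in results not called. Scaling to the sum without the 10 highest genes gave 0.14 for Mmp2, 0.0354 for Mmp19 and 0.10 for Timp3 between genotypes on HFD, -0.14 for Timp3 on chow, 0.24 for the Timp3 interaction and 0.0143 for Timp1 with diet in ASKO mice. This scaling also moved the median of all genes. Relative to the moved median, these 6 values were 0.0293, -0.0726, -0.0048, -0.0499, 0.0421 and -0.14, so the signs of Mmp19, of Timp3 on HFD and of Timp1 changed only with the shift of all genes. Upper-quartile scaling gave -0.0311 for Timp3 on chow. Without the 3 mice apart, the genotype difference on chow was -0.16 for Mmp19, -0.32 for Timp3 and 0.21 for Timp4, that of Timp3 on HFD was 0.15, and the interactions were 0.0908 for Mmp19 and 0.47 for Timp3. Without single mice, the genotype difference on chow ran from -0.73 to 0.15 for Mmp12, from -0.0012 to 0.32 for Mmp19, from -0.35 to 0.0143 for Timp2, from -0.11 to 0.17 for Timp3 and from -0.31 to 0.34 for Timp4. On HFD it ran from -0.24 to 0.24 for Mmp2 and from -0.29 to 0.18 for Timp3. The Timp3 interaction ran from -0.29 to 0.18 and Timp1 with diet in ASKO mice from -0.82 to 0.50. The Mboat7 difference on HFD ran from -0.39 to 0.28, and on chow it was -2.58 with a pseudocount of 0.1.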
